A study of Mus musculus with 6 samples.

Results

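The genes described here encode 10 proteins of the neuronal cytoskeleton: the stathmins Stmn1, Stmn2, Stmn3 and Stmn4, the neurofilament-type proteins Nefl, Nefm and Ina, the microtubule-associated proteins Map2 and Map1b, and the neuronal tubulin Tubb3. They were taken by name from the platform annotation, keeping every probe set assigned to exactly 1 of these symbols. This gave 21 of the 45101 probe sets on the array, and all 10 genes were among the 18193 genes tested. The set was chosen by its function with the log2 differences between null and heterozygote arrays already known, Stmn2 having been among the largest. Those differences are therefore given as a description of these 6 arrays and support nothing further.

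RNA came from EGFP-positive cells of mouse embryos at E11.5, sorted by fluorescence from dissociated tissue of the intermediate mesoderm region, the source of kidney and gonad. The 3 Pax2 null samples carried EGFP on both alleles (EGFP/EGFP) and the 3 Pax2 heterozygotes on 1 allele (EGFP/+). Every cell profiled therefore carried an EGFP allele, the number of EGFP alleles differed with the genotype, and no wild-type sample was included. The sources used here do not give the strain, the sorting gate or the number of embryos behind each sample. The labels do not say whether samples of a genotype are from different litters or embryos. The p-values thus reflect the spread of these 6 samples alone, part of which may be technical.

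Stathmins bind tubulin dimers and promote the shortening of microtubules; Stmn1 is made by many dividing cells, whereas Stmn2, Stmn3 and Stmn4 are best known from neurons. Neurofilament proteins assemble into the intermediate filaments that fill axons, and the MAPs bind along microtubules, Map2 mainly in dendrites and cell bodies and Map1b in growing axons. Tubb3 is the beta-tubulin commonly used to mark young neurons.

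In Pax2 null cells 3 of the 10 genes were higher beyond the threshold of the fit over all genes: Stmn2 by 6.24-fold, Map2 by 3.74-fold and Nefm by 2.72-fold (limma, adjusted p under 0.05, two-sided). None was lower beyond it, and 7 did not pass. In the same fit 0.808% of all genes were called higher and 0.583% lower. The same 3 genes were the only members whose null arrays all lay above all heterozygote arrays at the brightest probe set, a pattern seen in 6.49% of all genes. The median change of the 10 genes was 0.54 on the log2 scale, against -0.02 over all 18193 genes, and with 1 array left out it lay between 0.36 (without null 1) and 0.94 (without null 3). Stmn1, Stmn3, Stmn4, Ina and Tubb3 had overlapping arrays and confidence intervals that included 0. In a bulk sample, a different share of cells of a type and a different amount of RNA per cell cannot be told apart.

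**Figure D1:**
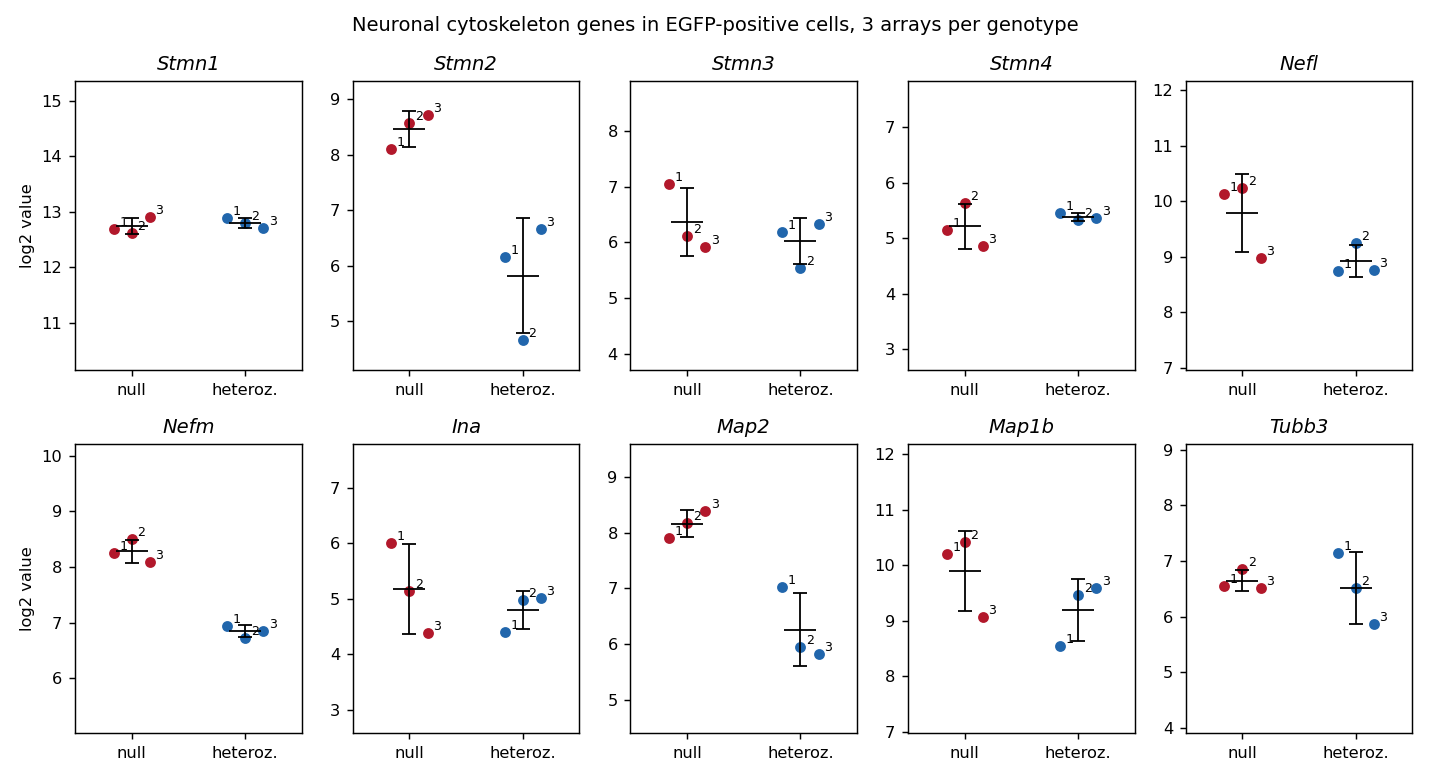
Log2 value of each gene's brightest probe set (y axis, all panels spanning the same number of log2 units) in the 3 null and 3 heterozygote arrays, numbered by replicate, with mean and SD as black bars. The null arrays lie above all heterozygote arrays for Stmn2, Nefm and Map2, and the genotypes overlap for the other 7 genes.

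The 6 arrays had median log2 values between 6.12 and 6.24, and arrays of 1 genotype correlated at 0.976 to 0.991 over all probe sets. The Gapdh control probe sets, read at the 3′ and 5′ ends of the transcript as a sign of RNA integrity, differed by 0.55 to 0.78 in null and 0.63 to 0.68 in heterozygote arrays (log2), so the genotypes overlapped. By the levels of the bacterial hybridization controls the arrays fell into 3 pairs, each with 1 array of each genotype. Pair 1 held null 3 and heterozygote 1, pair 2 null 1 and heterozygote 2, and pair 3 null 2 and heterozygote 3. This pairing comes from the data and not from the labels. Of 11 measured regulators and markers of the kidney intermediate mesoderm, all lay above the 33rd percentile of the probe sets (4.81 log2) in their mean over the 6 arrays. Pax2 itself is not analysed here.

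Stmn2, also known as SCG10, is a stathmin of growing axons. It stood at 8.10, 8.57 and 8.72 in null arrays 1 to 3, against 6.15, 4.66 and 6.66 in heterozygote arrays 1 to 3 (log2). The null arrays were close together and all higher, while heterozygote 2 lay below the other heterozygotes and under the 33rd percentile of the probe sets, where differences are compressed. The mean was 8.47 ± 0.32 in null and 5.83 ± 1.04 in heterozygote cells (SD, n = 3 each), a change of 2.64 ± 0.47 (SE) with a 95% confidence interval of 1.56 to 3.72. It ranked 11 from the top among the changes of the 18193 genes. Its second probe set read 6.88, 6.75 and 7.79 in null and 5.19, 4.47 and 5.01 in heterozygote arrays, again without overlap, with a change of 2.25 ± 0.31. The adjusted p of Stmn2 was 0.0390 in limma, and it rose above the threshold without null 1 (0.0860), null 2 (0.141), null 3 (0.111) or heterozygote 1 (0.0510), while the change over all 6 fits with 1 array left out stayed between 2.06 and 3.06.

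The other stathmins did not share this difference. Stmn1, the broadly made member of the family, read 12.70, 12.62 and 12.91 in null against 12.90, 12.80 and 12.71 in heterozygote arrays. Its genotypes overlapped and its change of -0.06 ± 0.15 had an interval of -0.42 to 0.30. Stmn3, a Golgi-associated stathmin of neurons, read 7.06, 6.11 and 5.92 in null and 6.18, 5.55 and 6.33 in heterozygote arrays. Null 1 was the highest and the remaining arrays intermingled, with a change of 0.34 ± 0.33 and an interval of -0.42 to 1.11, whereas its second probe set changed by -0.03 ± 0.31. Stmn4, a neuronal stathmin, read 5.14, 5.64 and 4.85 in null and 5.45, 5.33 and 5.36 in heterozygote arrays, a change of -0.17 ± 0.21 (interval -0.66 to 0.33). The upper ends of the intervals of Stmn1, Stmn3 and Stmn4 all lay below the lower end of the Stmn2 interval. As the set was chosen with the Stmn2 difference known, this is a description and not a test between stathmins.

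Among the filament proteins, Nefm, the medium neurofilament subunit, separated the genotypes most cleanly. It read 8.25, 8.50 and 8.09 in null arrays, against 6.94, 6.73 and 6.85 in heterozygote arrays. Both groups were tight and more than 1 log2 unit apart, with means of 8.28 ± 0.21 in null and 6.84 ± 0.11 in heterozygote cells (SD, n = 3 each). The change was 1.44 ± 0.17 (SE, interval 1.05 to 1.83; limma, adjusted p = 0.00995). Of the 3 called genes it was the one whose call survived the omission of any single array, with adjusted p up to 0.0495 in limma.

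Nefl, the light subunit without which neurofilaments do not assemble, is encoded next to Nefm on mouse chromosome 14, with no protein-coding gene between them. Its brighter probe set read 10.14, 10.24 and 8.98 in null arrays and 8.75, 9.25 and 8.76 in heterozygote arrays. Null 1 and null 2 stood above every heterozygote, but null 3 lay below heterozygote 2, so the groups overlapped. The change was 0.86 ± 0.34 (interval 0.08 to 1.65; limma, adjusted p = 0.432). The second Nefl probe set did not overlap, reading 8.09, 7.75 and 7.74 in null and 7.15, 7.11 and 6.50 in heterozygote arrays, with a change of 0.94 ± 0.22. Ina, alpha-internexin, is a filament protein of early neurons and read 6.01, 5.15 and 4.39 in null against 4.41, 4.97 and 5.02 in heterozygote arrays. Null 1 was the highest and null 3 the lowest of the 6, the change was 0.38 ± 0.39, and the other 2 Ina probe sets, both under the 33rd percentile, changed by -0.18 ± 0.17 and -0.24 ± 0.19.

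Map2 read 7.91, 8.17 and 8.40 in null arrays against 7.02, 5.94 and 5.81 in heterozygote arrays at its brightest probe set. All null arrays were higher, and heterozygote 1 stood above the other heterozygotes. The means were 8.16 ± 0.24 in null and 6.26 ± 0.66 in heterozygote cells (SD, n = 3 each), a change of 1.90 ± 0.32 (SE, interval 1.17 to 2.64; limma, adjusted p = 0.0317). The other 2 Map2 probe sets with a mean above the 33rd percentile likewise did not overlap, with changes of 1.41 ± 0.22 and 1.71 ± 0.22. In heterozygote arrays the latter read 4.06, 3.93 and 4.70, all under that percentile (4.81 log2), where differences are compressed. Its mean passed that level only through the null arrays. The fourth, under that level in every array, had a change of 0.19 ± 0.23. Without null 1, null 2, null 3, heterozygote 2 or heterozygote 3 the adjusted p of Map2 in limma was above the threshold, at up to 0.120, with changes between 1.68 and 2.28 over all 6 such fits.

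Map1b read 10.21, 10.41 and 9.07 in null and 8.55, 9.46 and 9.58 in heterozygote arrays. Null 3 and heterozygote 1, which form array pair 1, were each the lowest of their genotype, and the genotypes overlapped. The change was 0.70 ± 0.40 (interval -0.22 to 1.62), and the other 2 probe sets changed by 0.57 ± 0.31 and 0.54 ± 0.16, the last without overlap between genotypes. Tubb3 read 6.56, 6.86 and 6.52 in null against 7.15, 6.51 and 5.86 in heterozygote arrays. Its null arrays lay within the heterozygote range, and the change was 0.14 ± 0.31 (interval -0.57 to 0.85).

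Promoter sequences, from RefSeq (build GRCm38.p6), were at hand for 5 of the 10 genes, namely Map2, Map1b, Tubb3, Stmn3 and Ina. The 250 bases before the annotated start are shown for Map2, Map1b and Tubb3. At the brightest probe set Map2 separated the genotypes, whereas the genotypes overlapped for both Map1b and Tubb3. Map1b was higher in null within every array pair and Tubb3 was not. Capitals mark any of 5 motifs found on either strand: the TATA box (TATAAA), the E-boxes CAGCTG and CAGATG, which bHLH factors bind, the GC box (GGGCGG) and the CCAAT box (CCAAT). The windows are chr1:66175079-66175328 on the plus strand for Map2, chr13:99516603-99516852 on the minus strand for Map1b and chr8:123411303-123411552 on the plus strand for Tubb3, each written 5′ to 3′ along the gene.
Map2: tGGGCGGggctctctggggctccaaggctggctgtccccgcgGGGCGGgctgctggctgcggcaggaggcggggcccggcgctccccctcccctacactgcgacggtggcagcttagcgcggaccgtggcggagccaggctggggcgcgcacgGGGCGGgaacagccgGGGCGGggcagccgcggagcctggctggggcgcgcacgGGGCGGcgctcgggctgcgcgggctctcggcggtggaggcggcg
Map1b: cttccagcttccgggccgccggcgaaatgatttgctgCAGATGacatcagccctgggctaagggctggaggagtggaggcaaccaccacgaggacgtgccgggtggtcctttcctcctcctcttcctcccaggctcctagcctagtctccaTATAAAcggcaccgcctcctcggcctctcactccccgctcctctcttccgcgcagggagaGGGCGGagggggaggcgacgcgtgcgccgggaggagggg
Tubb3: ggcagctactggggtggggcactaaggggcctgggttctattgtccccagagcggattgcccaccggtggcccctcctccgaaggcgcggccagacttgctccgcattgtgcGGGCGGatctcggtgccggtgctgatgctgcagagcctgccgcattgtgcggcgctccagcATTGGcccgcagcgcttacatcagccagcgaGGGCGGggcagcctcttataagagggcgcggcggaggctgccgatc
The Map2 window held 5 GC boxes and no other motif of the set, in a stretch of 81.2% G and C. The Map1b window held 1 TATA box, 1 CAGATG and 1 GC box at 66.4% G and C, and the Tubb3 window 2 GC boxes and 1 CCAAT box at 68.0%. The Ina window held 1 CAGCTG and 2 GC boxes, and the Stmn3 window 1 CAGATG. Of 32851 promoter windows of the same length in the table, 12.4% held the TATA box, 13.0% CAGCTG, 14.4% CAGATG, 32.7% the GC box and 33.8% CCAAT. No motif was present in both Map2 and Map1b but absent from Tubb3. The genes shown were picked with their values known, so the windows are a description only.

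By probe set, 15 of the 21 had a positive change, 8 had all null arrays above all heterozygote arrays and 6 were called higher when all 34945 probe sets with 1 gene symbol were tested singly with limma. Of those 34945, 6.06% had that arrangement and 0.612% were called higher. The share of them with a positive change was not counted. The 6 called probe sets were both of Stmn2, 3 of the 4 for Map2 and the only one for Nefm. Of those for Map2, 1 lay under the 33rd percentile in every heterozygote array. For Stmn3 and Ina the probe sets differed in sign. Probe sets of a gene read the same RNA on the same arrays and are not replicates of the genotype.

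**Figure D2:**
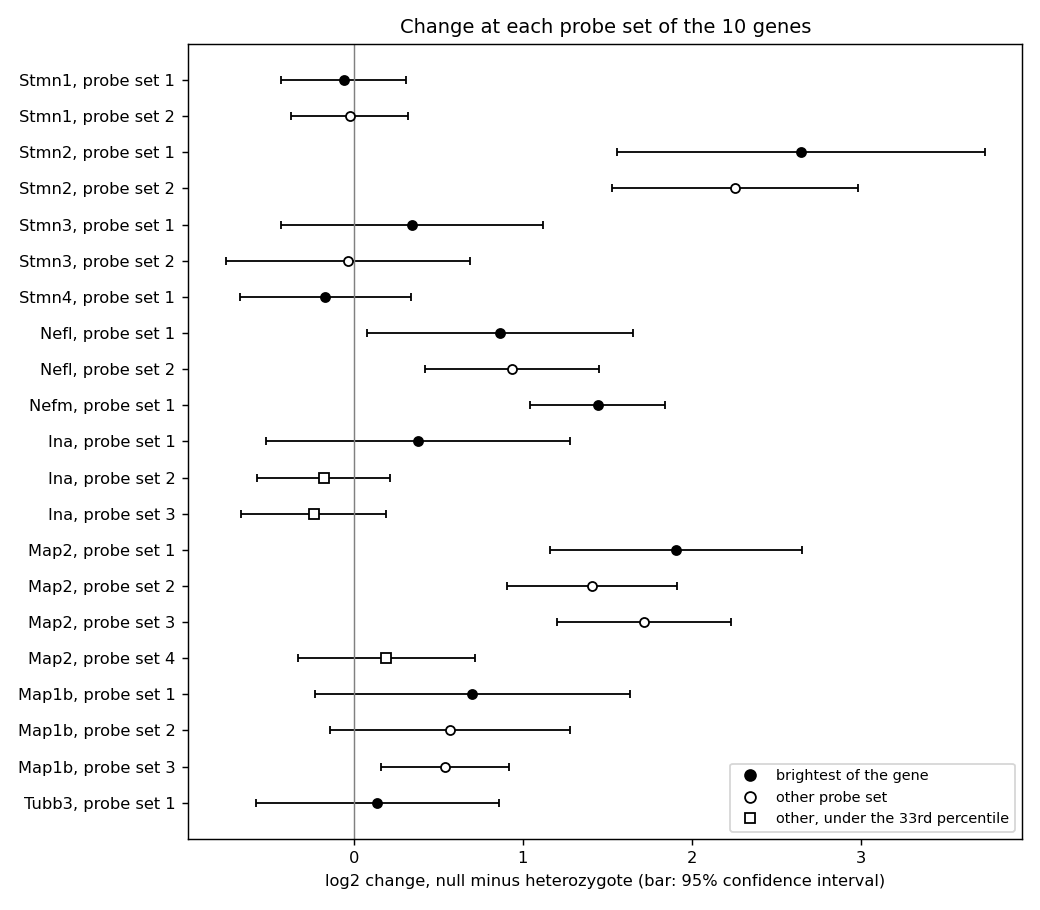
Change of each of the 21 probe sets (x axis, log2, null minus heterozygote) with its 95% confidence interval; filled circles are the brightest probe set of a gene and squares lie under the 33rd percentile. Both Stmn2 probe sets, the Nefm probe set and 3 of 4 for Map2 lie to the right of 1, and those of Stmn1 lie at 0.

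Within the 3 array pairs, null minus heterozygote was 2.57, 3.45 and 1.91 for Stmn2, 1.15, 1.52 and 1.65 for Nefm, and 1.38, 1.97 and 2.36 for Map2 (log2, pairs 1 to 3). Nefl differed by 0.23, 0.88 and 1.48 and Map1b by 0.52, 0.75 and 0.83. These 5 genes were higher in null in every pair, as were 19.1% of all genes. Tubb3 had no common direction, at -0.63, 0.04 and 1.001, nor had Stmn1, Stmn3, Stmn4 or Ina. With the pair as a block in limma, Map1b joined Stmn2, Nefm and Map2 past the threshold (adjusted p = 0.0348), giving 4 of 10 genes where 2.67% of all genes were called higher. For Nefl the blocked adjusted p was 0.127.

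**Figure D3:**
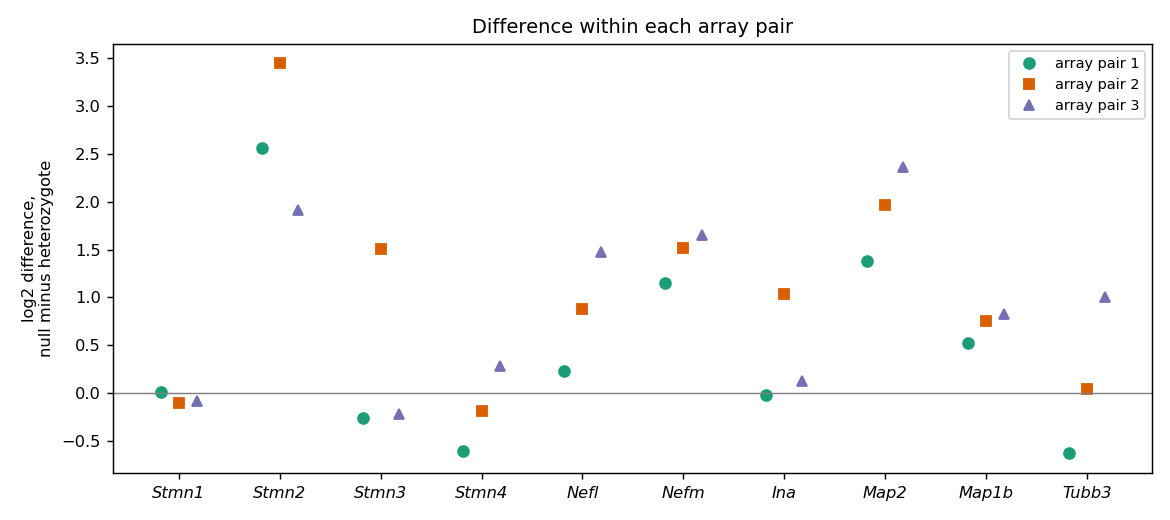
Difference between the null and the heterozygote array of each pair (y axis, log2) for the 10 genes. All 3 points lie above 0 for Stmn2, Nefl, Nefm, Map2 and Map1b, and on both sides of it for Stmn1, Stmn3, Stmn4, Ina and Tubb3.

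Over the 6 arrays, the values of Stmn2 followed those of Nefm (Pearson r = 0.91) and Map2 (0.87), but less those of Nefl (0.48), Map1b (0.42) and Tubb3 (0.07). Map1b followed Nefl (0.88) and ran opposite to Stmn1 (-0.93), whose values lay only between 12.62 and 12.91 log2. These are descriptions over 6 points that share the arrays and the genotype difference. Of 1866 other genes above the 33rd percentile that varied by an SD of at least 0.5, the 8 most like Stmn2 had r between 0.976 and 0.996. They were Thsd7a, the endocytic receptor gene Lrp1, the prostaglandin receptor gene Ptger4, Aplp1, a relative of the amyloid precursor gene, the actin-binding calponin Cnn2, C1qtnf7, Pid1 and the mesenchymal transcription factor Twist2. Because Stmn2 differed by genotype, genes picked for likeness to it differ in the same direction by that choice, and their changes support nothing further. Pid1 (1.65 ± 0.27) and Twist2 (1.76 ± 0.22) were called higher in null (limma, adjusted p = 0.0294 and 0.0123). Thsd7a, at 1.02 ± 0.21, was not (0.0784), nor were Lrp1 (0.0501), Cnn2 (0.0579), Aplp1 (0.104), Ptger4 (0.139) and C1qtnf7 (0.237).

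Other genes of the axonal cytoskeleton did not pass the test. Of 24, including other tubulins, MAPs, kinesins and growth cone proteins, none was called in either direction (limma), 18 had a positive change and the median was 0.23. All null arrays lay above all heterozygote arrays for 5 of the 24, where 6.49% of all genes did so, and below them for 1. At an unadjusted p under 0.05, 3 were higher and 1 lower. The shares of all genes with a positive change, with all null arrays lower, or with an unadjusted p under 0.05, were not counted. Such counts, here and for the lists that follow, are therefore a description without a background. With the pair block Gap43 and Dclk1 were called higher and Kif5c lower (limma, adjusted p = 0.0349, 0.0448 and 0.0221), where 1.9% of all genes were called lower. The mean level of the list ran from 8.24 to 8.39 in null and from 8.08 to 8.13 in heterozygote arrays (log2), without overlap. Gap43, a protein of growing axon tips, read 9.41, 9.15 and 8.68 in null against 7.83, 8.54 and 7.54 in heterozygote arrays, a change of 1.11 ± 0.29 (limma, adjusted p = 0.159, not past the threshold). The doublecortin-like kinase gene Dclk1 had a change of 0.73 ± 0.15 (0.0789) and the kinesin gene Kif5c one of -0.9997 ± 0.2286 (0.104). Dpysl3, a growth cone protein named after its values were seen, had a change of 1.02 ± 0.48 with overlapping arrays (0.571). Among 13 general tubulin and microtubule genes none was called in limma, 2 differed at an unadjusted p under 0.05 and the median was -0.02, with Map7, a MAP of epithelia, at -1.02 ± 0.32, Tubb6 at 0.55 ± 0.23 and the mesenchymal filament gene Vim at 0.31 ± 0.14. Map7 was called lower with the pair block (limma, adjusted p = 0.00955) and as the mean over its probe sets (0.0183).

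Of 31 pan-neuronal genes 2 were called higher and 1 lower in null, 17 had a positive change and the median was 0.05. Sncg, gamma-synuclein, read 7.05, 7.74 and 7.47 in null against 5.92, 6.05 and 6.10 in heterozygote arrays, a change of 1.40 ± 0.20 (limma, adjusted p = 0.0190). Nsg2, an endosomal protein of neurons, averaged 7.10 ± 0.07 in null and 5.60 ± 0.49 in heterozygote cells, a change of 1.49 ± 0.24 (0.0294). Elavl4, an RNA-binding protein of neurons, fell, at 6.90, 6.62 and 6.21 in null against 7.53, 8.47 and 8.35 in heterozygote arrays, a change of -1.54 ± 0.29 (limma, adjusted p = 0.0493). None of these 3 calls held in every fit with 1 array left out: Sncg was lost without null 2, null 3, heterozygote 2 or heterozygote 3, Nsg2 without any null array or heterozygote 3, and Elavl4 in all but that without heterozygote 1, with limma's adjusted p up to 0.0832, 0.106 and 0.182. With all 6 arrays, Elavl4 lost its call with the robust prior (limma, adjusted p = 0.0542), after renewed quantile normalization (0.0610) and with all probe sets as units (0.0629), and Nsg2 as the mean over its probe sets (0.0718). With the pair block 3 pan-neuronal genes were called higher and 2 lower. The mean level of the pan-neuronal list ran from 6.41 to 6.64 in null and 6.40 to 6.47 in heterozygote arrays.

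The lists for single kinds of neuron differed in how many of their genes were dim. For motor neurons 6 of 8 measured genes lay under the 33rd percentile, for spinal interneurons 9 of 12, for sensory neurons 6 of 11, for autonomic neurons and chromaffin cells 3 of 14, for neural progenitors 10 of 15 and for proneural factors 12 of 16. Some defining genes were dim and others were not; those given here were named after their values were seen. Chat, Mnx1, Gad1, Gad2, Pou4f1 and Sox2 lay under the 33rd percentile. Isl1, of motor and sensory neurons, averaged 7.47 ± 0.72 in null and 7.07 ± 1.02 in heterozygote cells (SD, n = 3 each), Slc32a1, of inhibitory interneurons, 6.88 ± 0.46 and 6.84 ± 0.31, and Nes, of progenitors, 9.77 ± 0.54 and 9.75 ± 0.49. Mean list levels overlapped between null and heterozygote arrays for motor neurons (4.17 to 4.39 and 4.14 to 4.28), neural progenitors (4.91 to 5.29 and 4.98 to 5.16), and neural crest and glia (6.93 to 7.30 and 7.18 to 7.23). They did not overlap for sensory neurons (5.63 to 5.84 in null, 5.45 to 5.57 in heterozygote), proneural factors (4.11 to 4.24 and 4.05 to 4.10) and spinal interneurons (4.63 to 4.82 and 4.85 to 4.996). In each of the lists without overlap a single gene had by far the largest change, namely Ntrk2 (1.69), Nhlh1 (1.39) and Lhx1 (-2.50). The median changes of those lists were 0.08, -0.02 and -0.06, in the same order. Whether these small shifts in mean level have a part in the values of Stmn2, Nefm and Map2 was not tested.

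None of the 11 sensory, 8 motor, 15 progenitor, 16 proneural or 9 crest and glia genes was called in limma in either direction, and their medians were 0.08, -0.03, 0.02, -0.02 and -0.01. At an unadjusted p under 0.05, 1, 0, 0, 1 and 2 of them differed. Ntrk2, a neurotrophin receptor also made outside neurons, had the largest positive change of the sensory list, 1.69 ± 0.34 (limma, adjusted p = 0.0665). Nhlh1, a bHLH factor of newly born neurons, read 6.16, 5.68 and 5.42 in null against 3.81, 4.85 and 4.43 in heterozygote arrays, a change of 1.39 ± 0.30 (0.0834, and 0.00809 with the pair block). Its heterozygote mean of 4.37 lay under the 33rd percentile of the probe sets, where differences are compressed. In the crest and glia list Tfap2a had a change of 0.75 ± 0.21 (0.185), and Mbp and Erbb3 of -1.06 ± 0.33 (0.249) and -0.53 ± 0.26 (0.592). With the pair block Ntrk2 and Tfap2a were called higher (limma, adjusted p = 0.0332 and 0.0225) and Mbp lower (0.0122).

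Among 14 genes of autonomic neurons and chromaffin cells Gata2 rose and Phox2a fell in null, and the median was 0.08. Gata2, a transcription factor of blood, urogenital and sympathetic cells, changed by 1.21 ± 0.15 (limma, adjusted p = 0.0111). Phox2a, a regulator of noradrenergic neurons, read 4.42, 5.13 and 4.49 in null against 6.06, 5.96 and 5.80 in heterozygote arrays, a change of -1.26 ± 0.22 (limma, adjusted p = 0.0351). Its null mean of 4.68 lay under the 33rd percentile of the probe sets, where differences are compressed. Of the genes of catecholamine synthesis and storage, also named after their values were seen, Th lay under the 33rd percentile, whereas Dbh averaged 5.36 ± 0.32 in null and 5.35 ± 0.15 in heterozygote cells and Slc18a2 7.06 ± 0.28 and 7.36 ± 0.22 (SD, n = 3 each). The mean list level ran from 5.83 to 6.16 in null and from 5.73 to 6.02 in heterozygote arrays. The Gata2 call was lost without null 1 or heterozygote 2 (limma, adjusted p up to 0.0591), and that of Phox2a in every fit with 1 array left out but that without null 2 (up to 0.129). Of the 12 spinal interneuron genes only Lhx1 was called, lower by 2.50 ± 0.22 on the log2 scale, and Lhx1 also marks the nephric duct.

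The repressor REST keeps neuronal genes silent outside neurons. None of 10 genes of REST and its partners was called (limma), the median was -0.0020, and the largest changes were those of Rcor2 (-0.18 ± 0.17) and Ehmt2 (0.16 ± 0.21). At an unadjusted p under 0.05 0 differed. Of 14 mitosis genes, whose products act in dividing cells as Stmn1 does, none was called and the median was -0.11, with Bub1 at -0.32 ± 0.15 and Top2a at -0.20 ± 0.17; at an unadjusted p under 0.05 0 differed. In the same cells all 11 kidney intermediate mesoderm genes had a negative change with a median of -1.20, and 5 were called lower: Ret, Lhx1, Sall1, Gata3 and Eya1. The mean level of that list ran from 8.36 to 8.83 in null and from 9.83 to 10.04 in heterozygote arrays; its part in the neuronal values was not tested.

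**Figure D4:**
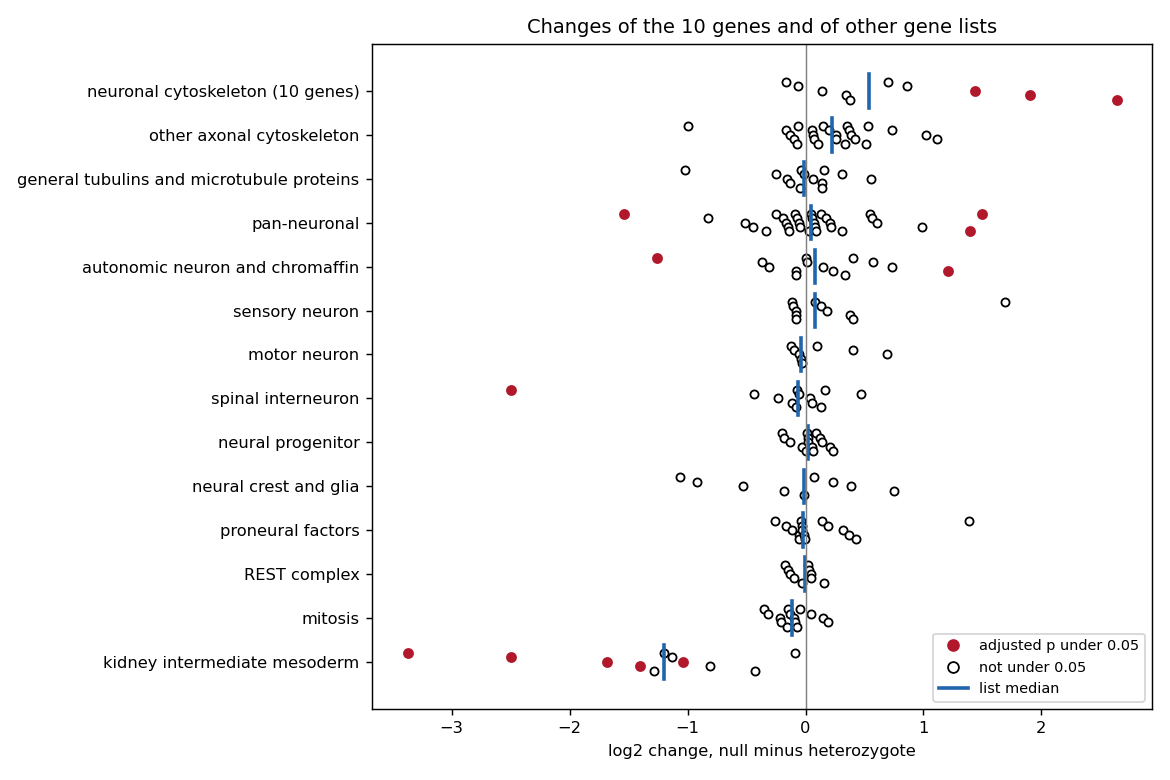
Change of each measured gene (x axis, log2, null minus heterozygote) in the 10 neuronal cytoskeleton genes and in 13 other lists; red points passed limma's adjusted p of 0.05 and blue bars are list medians. The neuronal lists have medians between -0.06 and 0.23, the 10 genes one of 0.54 and the kidney list one of -1.20.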

How the data were processed

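Total RNA (10 ng a sample) was amplified into cDNA by a NuGEN WT-Pico Ovation protocol, labelled with biotin and read on 1-colour arrays, per the labels' protocols. The submitters' processing notes name affy, RMA and limma and give no versions. The deposited values are log2 levels, 1 per probe set and array. RMA removes background and forces the arrays to 1 common distribution, which hides differences in total RNA, and it shrinks differences between dim probe sets. The sources used here do not give its settings.

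Of 45101 probe sets, 64 are array controls and were left out of the tests, 34945 others had exactly 1 gene symbol, 932 had several and 9211 were not listed in the platform annotation. The probe set of highest mean stood for each gene, giving 18193 genes. Null was compared with heterozygote with lmFit and eBayes of limma 3.58.1 (R 4.3.3, two-sided, Benjamini-Hochberg over all genes, threshold 0.05). Precision is limited by having 3 arrays a genotype, and errors are SDs over these or the SE of the fitted change. The script was tested on simulated data. The 14 hybridization controls of bioB, bioC and bioD gave the best of 15 ways to pair the arrays, at a total distance of 1.94, the second best having 5.05.

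The members and the gene lists were chosen with earlier results of these data known. Genes named are the 10 members, for each other list up to 3 genes with the smallest p and every gene that passed, and the 8 genes most like Stmn2; a few markers outside this rule are marked in the text as named after their values were seen. Alternatives covered the prior, array weights, a filter on dim genes, normalization, the choice of probe set, the array pair as a block, thresholds of 0.01 and 0.10 and omission of each array.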

Additional observations from a re-analysis of the deposited data

How the results depend on the processing

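For the 10 genes, the direction and the side of the threshold held in 87 of 90 fits under alternatives other than leaving out an array, and in 47 of 60 fits with 1 array left out. The 3 exceptions with all arrays kept were Stmn2, lost after renewed quantile normalization (limma, adjusted p = 0.0504), Map1b, called with the pair block, and Ina, whose change was -0.012 as the mean over its probe sets. With 1 array left out, changes that did not pass in any fit spanned 0, from -0.0046 to 0.56 for Stmn3, -0.38 to 0.011 for Stmn4, -0.036 to 0.78 for Ina and -0.18 to 0.46 for Tubb3.

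The number of the 10 genes called higher was 1 to 2 with 1 array left out, 1 at a threshold of 0.01 and 2 to 4 under the other alternatives, with 0 called lower throughout. Their median change lay between 0.36 and 0.94 with 1 array left out, the highest value being that without null 3. The number of all genes called was 553 with array weights, 830 with the pair block, 51 at a threshold of 0.01, 405 at 0.10 and 84 to 318 with 1 array left out. Of the 40 other named genes, 4 calls were lost (3 of Elavl4 and 1 of Nsg2) and 17 gained over 353 fits with all arrays. With 1 array left out, calls of these genes were lost in 35 of 240 fits and gained in 2, and the direction turned in 1. Ntrk3 turned to -0.068 as the mean over its probe sets, and Fabp7, with a change of 0.24, lay between -0.039 and 0.43 with 1 array left out; the cause was not tested. Genes under the 33rd percentile carry signal close to background, which limits what can be said of markers there.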
